A study of Mus musculus with 19 samples.

Results

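FLT3 is a receptor tyrosine kinase of blood progenitors, and its internal tandem duplication (FLT3-ITD) leaves the kinase active without ligand and drives the transcription factor STAT5. Dnmt3a is a de novo DNA methyltransferase that is often mutated in leukemia. Thymocytes that carry both CD4 and CD8 are double-positive cells, a stage that follows the pre-T cell receptor checkpoint and Notch signalling, and at which weak signals of the finished T cell receptor keep cells alive. The comparison described here set 4 libraries of FLT3-ITD leukemia with Dnmt3a deleted (KO-ITD) against 2 libraries of thymocytes with Dnmt3a deleted and GFP alone (KO-GFP). These 6 libraries were chosen by their labels from the 17 of the series, and genes were described over the whole table of 23458 gene names, of which 15508 had enough counts to be tested.

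Both groups came from C57BL/6 donor marrow of genotype Mx1-cre+;Dnmt3af/f, in which Cre recombinase is driven by the interferon-inducible Mx1 promoter and so is not limited to T cells. The KO-ITD donors carried the retroviral transgene MSCV_FLT3-ITD-GFP and the KO-GFP donors MSCV_GFP, and transduced marrow was transplanted into lethally irradiated mice. Donor-derived CD4+CD8+ cells were sorted, polyadenylated RNA was sequenced, and the values are estimated counts per gene. KO-ITD replicates 1 and 2 were collected from marrow and replicates 3 and 4 from thymus, and both KO-GFP replicates came from thymus. The sample labels give Sca-1 enrichment of the donor marrow for all KO-ITD libraries and ckit enrichment for both KO-GFP libraries, so this difference and that of FLT3-ITD cannot be told apart. No source used here gives the age of the mice or the animal behind each replicate. The p-values thus measure only how the 17 libraries of the fit spread within their groups, which may be technical. The Dnmt3a-intact groups, WT-ITD leukemias (n = 3) and WT-GFP thymocytes (n = 2), are given beside some of the results.

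Total counts were 7660541 to 18620967 in KO-ITD and 16606964 to 19516952 in KO-GFP, and levels are given in CPM, each gene's count per 1000000 counts after scaling. Gene positions are those of the deposited mm9 models. Dnmt3a (chromosome 12, 3806980 to 3914443) had 65.8, 127, 68.1 and 53 CPM in KO-ITD, in the order of replicates 1 to 4 kept throughout, and 207 and 144 CPM in KO-GFP. Both groups carry the deletion, and exons that the deletion spares are counted as well, so the level is only a partial check of the labels. The Dnmt3a-intact libraries had 180, 238 and 183 CPM in WT-ITD and 257 and 250 CPM in WT-GFP. Each deleted library lay below each intact library of the same transgene, but KO-GFP replicate 1 lay within the WT-ITD range. Flt3 was at 2.16, 1.26, 3.37 and 0.485 CPM in KO-ITD and 2.56 and 3.29 CPM in KO-GFP (adjusted p = 0.443). No source used here says whether reads of the transgene entered that count. Xist, the RNA of the inactive X chromosome, was at 0, 2276, 0 and 0 CPM in KO-ITD and 2839 and 1802 CPM in KO-GFP. The Y-linked helicase Ddx3y mirrored it, at 129, 0, 140.1 and 179.9 CPM in KO-ITD and 0.0639 and 0 CPM in KO-GFP, so only KO-ITD replicate 2 had the Xist state of both KO-GFP libraries, and the part of sex in the results was not tested.

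The sorted identity was checked against 17 genes of double-positive thymocytes. Their summed level was 7493, 9917, 3786 and 4794 CPM in KO-ITD and 23058 and 19758 CPM in KO-GFP, so the group sums did not overlap. Of the 17 genes, 10 fell at an adjusted p under 0.05, Ptcra rose and 6 did not pass. Among all 15508 tested genes, 9.85% fell and 9.8% rose. Cd4, the coreceptor for MHC class II (chromosome 6, 124814711 to 124838227), was at 183, 312, 307 and 403 CPM in KO-ITD and 1554 and 1269.95 CPM in KO-GFP (log2 change -2.23, SE 0.27, adjusted p = 0.000564). Cd8b1, the beta chain of the MHC class I coreceptor, fell to 365, 349, 247 and 89.8 CPM in KO-ITD, against 1220.2 and 1223 CPM in KO-GFP (adjusted p = 0.0145), and Cd8a fell by 1.68 on the log2 scale (adjusted p = 0.0356). Both coreceptors were still measured in every leukemia, each below every KO-GFP library. The call of Cd4 was kept in all fits without 1 library. That of Cd8a was lost without KO-GFP replicate 1 (adjusted p = 0.229), KO-GFP replicate 2 (0.114) or KO-ITD replicate 3 (0.0678), and that of Cd8b1 without KO-GFP replicate 1 (0.137) or 2 (0.0658). The recombinases Rag1 (2053, 3779, 269 and 1363 CPM in KO-ITD and 5921 and 4843 CPM in KO-GFP) and Rag2 (171, 278, 11.2 and 39.4 CPM in KO-ITD and 469 and 510.4 CPM in KO-GFP) had wide spread among the leukemias and did not pass (adjusted p = 0.16 and 0.107). Cd3e was at 277, 262, 431 and 344 CPM in KO-ITD and 336 and 386 CPM in KO-GFP (adjusted p = 0.818), and the kinase Lck at 1875, 1375, 1078 and 1182 CPM in KO-ITD and 1651 and 1405 CPM in KO-GFP (adjusted p = 0.849). In bulk samples, fewer cells of a type and less RNA per cell cannot be told apart.

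Markers of some other cells also moved with the groups. Beside the counts below, 9.8% of all tested genes rose and 9.85% fell. The summed level of 13 erythroid genes was 857, 2088, 1784 and 1464 CPM in KO-ITD and 156 and 328 CPM in KO-GFP, where Rhag and Car1 were at 0, and 8 of them rose. For 11 fibroblast and stroma genes the sums were 279, 147, 699 and 2930 CPM in KO-ITD and 7.92 and 6.89 CPM in KO-GFP, where Sparc, Pdgfra and Mgp were at 0, and 10 of them rose. Sums for 12 monocyte and macrophage genes were 432, 233, 311 and 5370 CPM in KO-ITD and 133 and 171 CPM in KO-GFP, with no gene passing. For 11 granulocyte genes they were 1087, 275, 139 and 376 CPM in KO-ITD and 12.9 and 60.4 CPM in KO-GFP. Of these genes 1 was called higher (9.09%), near the share of all tested genes. KO-ITD replicate 4 stood apart by its stromal and macrophage sums, and replicate 1 by its granulocyte sum. The 8 B cell genes summed to 38.1 to 163 CPM in KO-ITD and 51.3 and 72.5 CPM in KO-GFP, and the 9 dendritic cell genes to 36.4 to 782 CPM in KO-ITD and 278 and 346 CPM in KO-GFP, with none passing. Megakaryocyte genes summed to 16.9 to 139 CPM in KO-ITD and 21.5 and 41.5 CPM in KO-GFP, and endothelial genes to 75.2 to 289 CPM in KO-ITD and 152 and 153 CPM in KO-GFP, with 2 and 3 genes higher. The 7 thymic epithelial genes summed to 75.8 to 309 CPM in KO-ITD and 9.52 and 11.2 CPM in KO-GFP, and the epithelial proteasome gene Psmb11 was at 0 in all KO-ITD libraries; 1 of the 5 tested rose. That gene is Epcam, which made up most of the KO-ITD sums (84.1, 72.7, 291 and 77.7 CPM). The 9 NK and cytotoxic genes summed to 338 to 3220 CPM in KO-ITD and 82.0 and 106 CPM in KO-GFP. Of them 1 was called higher and 1 lower (11.1% each). The higher one, Gzma, made up most of the KO-ITD sums (1464, 509, 3037 and 315 CPM). The part of these cells in the results below was not tested.

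Across all tested genes, 1520 were higher and 1527 lower in KO-ITD at an adjusted p under 0.05, which is 9.8% and 9.85% of 15508, or 19.6% in either direction. The change was at least 2-fold for 2211 of the 3047. The median log2 fold change of all tested genes was 0.19. KO-ITD and KO-GFP libraries did not overlap, on the higher side, for 22.9% of all tested genes and, on the lower side, for 21.8%. The count was 147 without KO-GFP replicate 1 and 918 without KO-GFP replicate 2, and 2319 to 3949 without 1 of the leukemias. The calls that passed in the fit to all libraries and in all 6 fits that leave out 1 library were 47 higher and 99 lower genes. Among the gene lists used below, 406 genes were called, 18 of them in all 6 such fits, and the other 388 were lost without KO-GFP replicate 1, as were 293 without KO-GFP replicate 2 and 115 without at least 1 of the leukemias.

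A naming rule ranked called genes by the gap between the lowest library of the higher group and the highest library of the other. Upward, Sfrp2, a secreted antagonist of Wnt ligands (chromosome 3, 83570243 to 83578236), was at 81.1, 115, 84 and 100.5 CPM in KO-ITD and 0.0639 and 0.152 CPM in KO-GFP (log2 change 9.63, SE 0.85, adjusted p = 8.2e-05). The leukemias were close to each other for this gene, and far from both KO-GFP libraries. Fbp1, the gluconeogenic fructose-1,6-bisphosphatase (chromosome 13, 62966113 to 62989642), was at 237, 166, 119.8 and 175 CPM in KO-ITD and 1.34 and 0.506 CPM in KO-GFP (log2 change 7.57, SE 0.73, adjusted p = 0.00013). Ogdhl, a relative of the oxoglutarate dehydrogenase subunit of the citric acid cycle, was at 55, 63, 63.7 and 57 CPM in KO-ITD and 1.47 and 1.42 CPM in KO-GFP (adjusted p = 0.000165). Gldc, the glycine decarboxylase of the mitochondrial glycine cleavage system (chromosome 19, 30172931 to 30249931), had the widest gap, at 159, 114, 731 and 105 CPM in KO-ITD and 0.192 and 0.101 CPM in KO-GFP (adjusted p = 0.0283). Replicate 3 was the highest leukemia for Gldc and replicate 4 the lowest, and all lay far above KO-GFP. Khdc1a rose by 6.27 on the log2 scale, Gyltl1b, a glycosyltransferase of the LARGE family, by 5.83, Lsr by 6.98, and Enah, a regulator of actin filaments, by 8.99. Syndig1l, Ccdc136 and Vrtn had 1 to 3 counts in KO-GFP, so their ratios are 691 (95% exact counting interval 191 to 5708), 1394 (250 to 55091) and 214 (73 to 1040).

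Of the 20 genes with the widest upward gap, 5 belong to matrix, serum or stromal proteins: Sparc, Bgn, Serping1, Mgp and Col1a2. Sparc was at 47.3, 21.9, 41.9 and 315 CPM in KO-ITD and 0 in KO-GFP, at least 1028-fold higher when KO-GFP is set at 3 counts over the group as a floor, and at least 384-fold higher without replicate 4. Slc4a1, the red cell anion exchanger (67.6, 458, 96 and 197 CPM in KO-ITD and 0 and 0.76 CPM in KO-GFP), and Aqp1, a water channel of red cells and endothelium, also stand among the 20. Sparc, Bgn, Mgp and Col1a2 are members of the stromal list summed above, and Slc4a1 of the erythroid list. Moving with those sums is thus partly built in for them. Serping1 and Aqp1 are in neither list. The part of those cells was not tested. Sfrp2, Fbp1, Syndig1l, Khdc1a and Ogdhl passed in all fits that leave out 1 library. The other 15 were lost without KO-GFP replicate 1 (adjusted p of 0.0533 to 0.243) and 12 of these without KO-GFP replicate 2 (0.0756 to 0.16). With the 2 marrow leukemias alone all 20 passed, and with the 2 thymus leukemias alone all 20 passed too. The ranking had already placed every leukemia above both KO-GFP libraries, so these passes follow largely from how the genes were chosen.

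**Figure D1:**
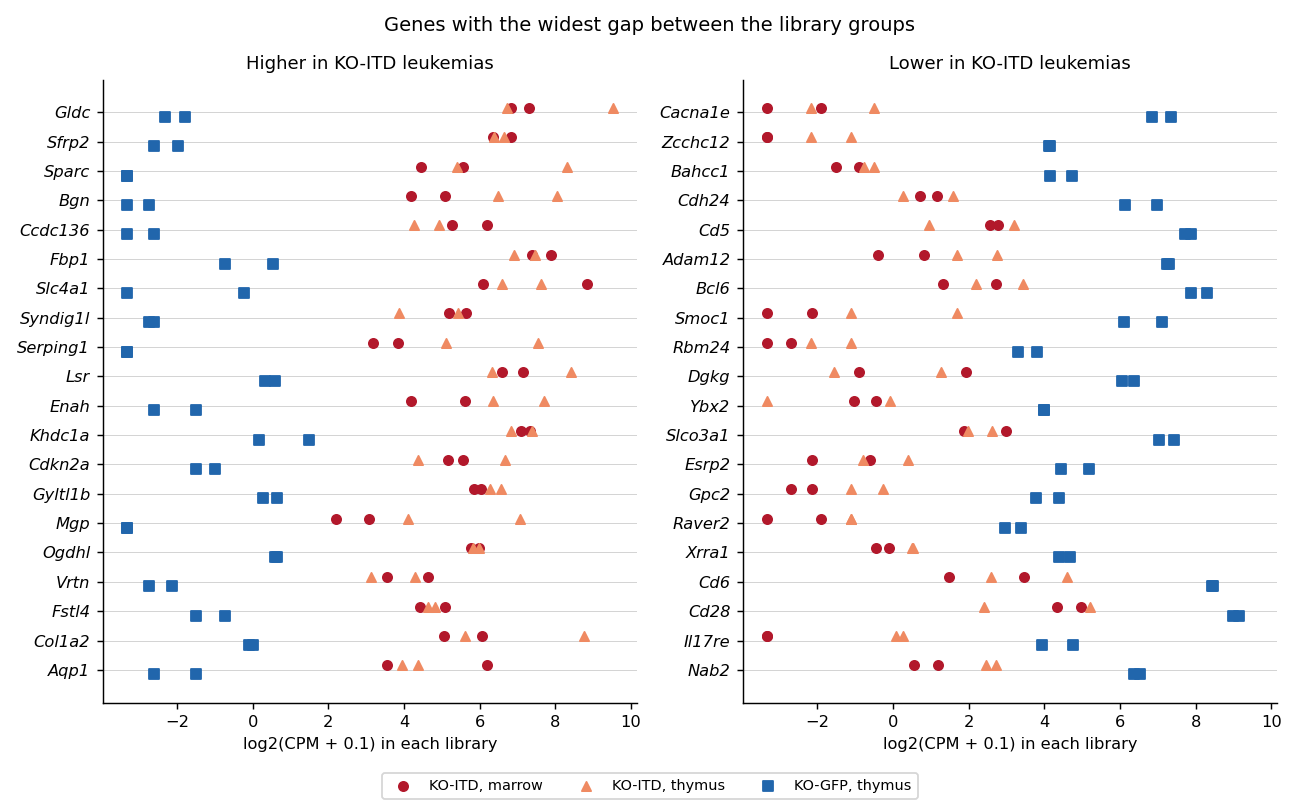
Levels of the 20 genes with the widest upward gap (left) and the 20 with the widest downward gap (right), as log2(CPM + 0.1), 1 point a library: circles are KO-ITD from marrow, triangles KO-ITD from thymus and squares KO-GFP. By the choice of genes, no KO-ITD point overlaps a KO-GFP point in either panel. Sparc, Serping1 and Mgp have both KO-GFP points at 0 CPM.

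Downward, the widest gap was that of Cacna1e, the pore subunit of the R-type calcium channel (chromosome 1, 156239649 to 156573050), at 0, 0.165, 0.601 and 0.121 CPM in KO-ITD and 164 and 115 CPM in KO-GFP (log2 change -9.28, SE 1.11, adjusted p = 0.000686). Cdh24, a cadherin, was at 1.53, 2.14, 2.89 and 1.09 CPM in KO-ITD and 125 and 70.8 CPM in KO-GFP (log2 change -5.66, SE 0.44, adjusted p = 4.36e-05). Bahcc1 was at 0.255, 0.44, 0.601 and 0.485 CPM in KO-ITD and 26.6 and 17.6 CPM in KO-GFP (adjusted p = 4.36e-05). These genes were near 0 in each leukemia. Slco3a1, an organic anion transporter, fell by 4.82 on the log2 scale, Esrp2, an epithelial splicing factor, by 5.60, and Ybx2, an RNA-binding protein of germ cells, by 5.08. Gpc2, a glypican, fell by 5.81, Dgkg, a diacylglycerol kinase, by 5.53, and Smoc1, a matrix protein, by 6.90. Cd5, Cd6, Cd28 and Nab2, of T cell signalling, and Bcl6 are also among the 20. Of the 20 downward genes, 15 passed in all fits that leave out 1 library. Adam12, Smoc1, Rbm24, Dgkg and Il17re were lost without KO-GFP replicate 1 (adjusted p of 0.0692 to 0.156), and Smoc1 also without KO-GFP replicate 2 (0.0542). Marrow and thymus leukemias taken separately both gave the call for 19 of the 20, which again follows largely from how the genes were chosen.

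Gene lists of pathways were counted next, each beside the background of 9.8% higher and 9.85% lower among all genes. The counts describe the lists, and no test of a list was made. Apart from the marker lists, those with the largest share lower were T lineage transcription factors (16 of 41), histone methylation and Polycomb (16 of 45), CD4, CD8 and lineage choice (4 of 12) and T cell receptor signalling (14 of 44). The largest shares higher were in cytosolic ribosomal proteins (80 of 86), oxidative phosphorylation (52 of 84), the STAT5 axis (11 of 26) and the proteasome and unfolded protein response (13 of 33). No gene of 38 for S phase and mitosis was called in either direction by edgeR with all 4 leukemias, but 5 were lower with the thymus leukemias alone and 2 higher with the marrow leukemias alone. Mki67 was at 353, 909, 395 and 136 CPM in KO-ITD and 1015 and 1086 CPM in KO-GFP, with KO-ITD replicate 4 lowest (adjusted p = 0.12). None of the 8 GIMAP GTPases passed either, though all 8 had a negative log2 fold change.

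**Figure D2:**
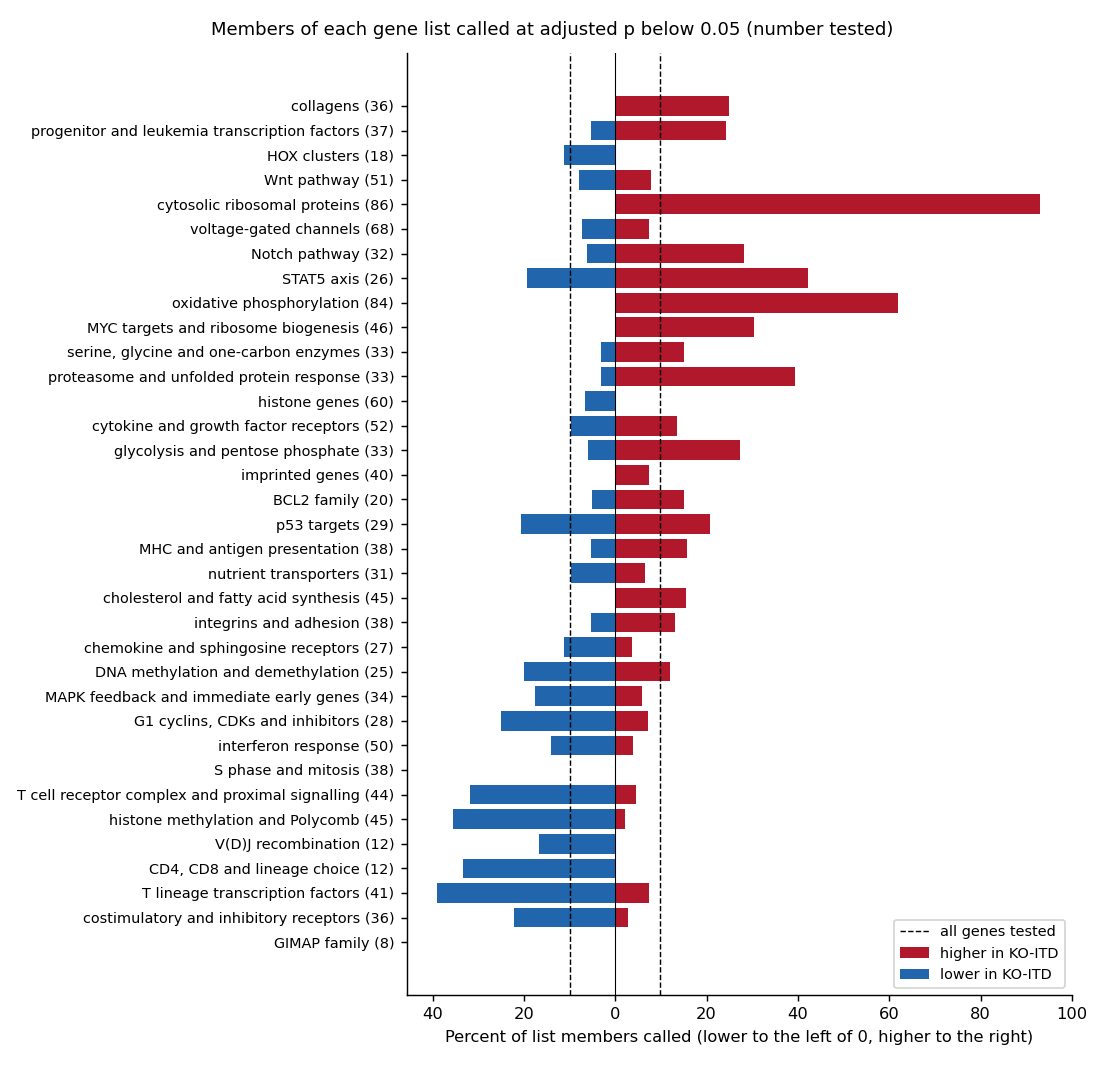
Percent of the tested members of each gene list that were called at an adjusted p under 0.05, higher in KO-ITD to the right of 0 and lower to the left, with the number tested in brackets. Dashed lines mark the 9.8% and 9.85% of all 15508 tested genes, and lists run from the highest median log2 fold change at the top to the lowest.

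The T cell receptor signals through CD3 chains, Lck and Zap70, and CD5 and CD6 restrain it. Of 44 genes of this list, 14 fell, 2 rose and 28 did not pass, with a median log2 fold change of -0.43. Cd5 (chromosome 19, 10792633 to 10813464) was at 5.85, 6.71, 9.14 and 1.82 CPM in KO-ITD and 237 and 209.5 CPM in KO-GFP (log2 change -5.24, SE 0.49, adjusted p = 9.4e-05). Cd6 was at 2.67, 10.8, 24.1 and 5.95 CPM in KO-ITD and 355 and 343 CPM in KO-GFP (log2 change -5.00, SE 0.64, adjusted p = 0.000708). Both genes were low in every leukemia, and the groups did not overlap. Rasgrp1, the Ras activator downstream of the receptor, was at 63.3, 115, 166 and 23.3 CPM in KO-ITD and 917 and 834 CPM in KO-GFP (adjusted p = 0.00908). Nfatc3, a calcium-regulated factor of this stage, was at 252, 353, 191 and 183 CPM in KO-ITD and 1164 and 940.2 CPM in KO-GFP (adjusted p = 0.000574). Themis fell by 1.78 on the log2 scale, the adaptor Trat1 by 1.65 and Malt1 by 1.10. The ubiquitin ligases went apart: Cbl fell by 2.25 and Cblb rose by 1.92, at 149, 319, 179 and 361 CPM in KO-ITD and 66.6 and 66.7 CPM in KO-GFP. Zap70 (152, 152, 185 and 60.7 CPM in KO-ITD and 242 and 185 CPM in KO-GFP) and Cd3g did not pass (adjusted p = 0.174 and 0.84). Cd5, Cd6 and Nfatc3 were kept in every fit without 1 library. The other 13 calls were lost without KO-GFP replicate 1 (adjusted p of 0.0764 to 0.288), and those of Cbl, Ptprc, Lcp2 and Ptcra also without KO-ITD replicate 1. Of those named, the calls of Cbl, Cblb, Lcp2, Ptprc, Trat1 and Ptcra were lost without KO-GFP replicate 2 too (0.0725 to 0.155), and that of Cbl without KO-ITD replicate 4 (0.0524).

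Immediate early genes are switched on quickly by receptor and MAPK signals. Of 34 MAPK feedback and immediate early genes, 6 fell, 2 rose and 26 did not pass. The 6 are the zinc finger factors Egr1, Egr2 and Egr3 and the orphan nuclear receptors Nr4a1, Nr4a2 and Nr4a3. With the marrow leukemias alone 8 of the list fell and 2 rose, but with the thymus leukemias alone 4 fell and 5 rose. Egr1 was at 2.55, 1.87, 4.09 and 25 CPM in KO-ITD and 118 and 121 CPM in KO-GFP (log2 change -3.84, SE 0.92, adjusted p = 0.0143). Nr4a1 was at 8.53, 10.1, 6.62 and 4 CPM in KO-ITD and 85.6 and 89.6 CPM in KO-GFP (log2 change -3.57, SE 0.60, adjusted p = 0.00335). Replicate 4 was the highest leukemia for Egr1 and the lowest for Nr4a1. Nab2, a corepressor of EGR factors, was at 2.16, 1.37, 5.41 and 6.55 CPM in KO-ITD and 83.1 and 92 CPM in KO-GFP (adjusted p = 0.000709). The 2 that rose in the fit to all libraries are Myc and Ier3. Ier3 was at 2.04, 0.605, 3.73 and 27.1 CPM in KO-ITD and 0.0639 and 0.203 CPM in KO-GFP. Nr4a1 and Nab2 were kept in all fits without 1 library. The other 7 were lost without KO-GFP replicate 1 (adjusted p of 0.0565 to 0.21), and Egr3 also without KO-ITD replicate 1 (0.0621). Without KO-GFP replicate 2 those of Egr1, Egr2, Egr3, Nr4a3 and Ier3 were lost (0.0573 to 0.0939).

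Of 36 costimulatory and inhibitory receptors, 8 fell, 1 rose and 27 did not pass. With the thymus leukemias alone 2 fell and 1 rose, and without KO-ITD replicate 4, 5 fell and 2 rose. Cd28, the main costimulatory receptor of T cells (chromosome 1, 60803232 to 60830203), was at 31.3, 19.95, 36.9 and 5.22 CPM in KO-ITD and 570.4 and 512 CPM in KO-GFP (log2 change -4.54, SE 0.61, adjusted p = 0.00103). Its relative Ctla4, which binds the same ligands and inhibits, was at 243, 222, 529 and 78.6 CPM in KO-ITD and 10.6 and 17.6 CPM in KO-GFP (log2 change 4.25, SE 0.82, adjusted p = 0.00657). Cd28, Ctla4 and Icos are neighbours on chromosome 1. Each library of KO-ITD had less Cd28 and more Ctla4 than each library of KO-GFP. Icos, of the same family, fell by 2.99, Cd40lg by 5.69, the activation marker Cd69 by 2.78 and Lag3 by 3.11 on the log2 scale. The death receptor Fas was at 22.7, 19.4, 24.4 and 28.8 CPM in KO-ITD and 108 and 107 CPM in KO-GFP (adjusted p = 0.0457), a call lost in every fit without 1 library. Cd28 was kept in all such fits, and the other calls were lost without KO-GFP replicate 1 (adjusted p of 0.128 to 0.318). That of Lag3 was also lost without KO-ITD replicate 1, 2 or 3 (0.0804, 0.0791 and 0.0727), that of Cd69 without KO-ITD replicate 1 or 4 (0.0766 and 0.0636) and that of Cd40lg without KO-ITD replicate 1 (0.0595). Without KO-GFP replicate 2 those of Icos, Cd40lg, Cd69 and Lag3 were lost too (0.109 to 0.132).

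T lineage transcription factors set the double-positive program. Of 41, 16 fell, 3 rose and 22 did not pass. Satb1, which organises thymocyte chromatin, was at 299, 505, 483 and 346 CPM in KO-ITD and 3334 and 2488 CPM in KO-GFP (log2 change -2.83, SE 0.41, adjusted p = 0.00169). The groups did not overlap for Satb1. Ets2 fell by 2.54 on the log2 scale, Ikzf3 by 2.00, Ikzf2 by 3.14, Tcf7 by 1.39 and the commitment factor Bcl11b by 1.85. Gata3 was at 48, 40.01, 94.9 and 41.4 CPM in KO-ITD and 88 and 96.3 CPM in KO-GFP and did not pass (adjusted p = 0.544). Inhibitors of E proteins split: Id3 fell to 14.6, 5.44, 5.65 and 11.9 CPM in KO-ITD, against 65.5 and 78.7 CPM in KO-GFP, while Id2 rose to 128, 74, 144 and 116 CPM in KO-ITD, against 21.7 and 45.3 CPM in KO-GFP. Id1 also rose (21.1, 24.8, 2.77 and 23.2 CPM in KO-ITD and 1.53 and 1.52 CPM in KO-GFP), with replicate 3 nearest to KO-GFP. Nfil3 was at 20.4, 25.2, 33.2 and 25 CPM in KO-ITD and 5.11 and 4.61 CPM in KO-GFP (adjusted p = 0.00183). Among 12 V(D)J recombination genes the repair factors Lig4 and Dclre1c fell by 1.44 and 1.42. Satb1 and Nfil3 were kept in all fits without 1 library. The other 14 calls were lost without KO-GFP replicate 1 (adjusted p of 0.0698 to 0.33), those of Bcl11b, Sox4 and Ikzf1 also without each of 3 leukemias in turn and that of Tcf7 without KO-ITD replicate 3 (0.0511). Without KO-GFP replicate 2, 10 of the calls were lost (0.0573 to 0.144).

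STAT5 is phosphorylated downstream of FLT3-ITD and binds the motif TTCNNNGAA, where N is any base. Of 26 genes that STAT5 is known to induce or repress, or that carry its signal, 11 rose, 5 fell and 10 did not pass. Cish, Bcl6 and Lta have a promoter window with more than 1 copy of the motif, for Bcl6 only at its downstream start. These windows of Cish, which rose, and Bcl6, which fell, are shown, and Lta did not pass (adjusted p = 0.73). Windows run from 250 bases before to 50 after the RefSeq start in GRCm38.p6, 5′ to 3′ on the gene's strand, and capitals mark the motif.
Cish, chr9:107296409-107296708, plus strand: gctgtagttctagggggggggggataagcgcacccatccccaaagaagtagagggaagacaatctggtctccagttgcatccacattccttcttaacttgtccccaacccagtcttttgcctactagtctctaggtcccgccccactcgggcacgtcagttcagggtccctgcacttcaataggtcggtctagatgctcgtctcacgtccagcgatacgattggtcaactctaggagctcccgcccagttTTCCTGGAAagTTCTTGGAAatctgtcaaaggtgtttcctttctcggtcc
Bcl6, chr16:23981234-23981533, minus strand: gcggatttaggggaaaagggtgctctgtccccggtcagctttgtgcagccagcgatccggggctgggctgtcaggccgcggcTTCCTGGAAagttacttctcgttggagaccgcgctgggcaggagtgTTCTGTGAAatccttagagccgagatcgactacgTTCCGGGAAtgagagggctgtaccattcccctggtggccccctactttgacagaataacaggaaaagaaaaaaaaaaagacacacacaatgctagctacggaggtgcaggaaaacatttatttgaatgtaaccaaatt
The Cish window holds 2 matches and this Bcl6 window 3. The window of the upstream Bcl6 start (chr16:23988803-23989102), the one nearer the outer end of the gene model, holds 1. The motif reads the same on both strands. Of 32851 such windows in the table, 8.3% hold at least 1 match, 0.457% at least 2 and 0.0335% at least 3. Of the 26 genes, 20 had a window and 4 a match in at least 1 window: Cish, Bcl6, Lta and Socs3. Counted by gene in the same way, 9.55% of 27025 gene symbols with a window hold a match.

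Cish, a feedback inhibitor of cytokine receptors (chromosome 9, 107199020 to 107204292 in mm9), was at 165, 240.1, 294 and 262 CPM in KO-ITD and 4.79 and 7.85 CPM in KO-GFP (log2 change 5.24, SE 1.03, adjusted p = 0.00703). All 4 leukemias were high, with replicate 1 the lowest of them. Socs2, of the same family, was at 26.9, 34.4, 127 and 54.9 CPM in KO-ITD and 0.958 and 2.13 CPM in KO-GFP (adjusted p = 0.0119) and Socs3 at 150.2, 279, 89.2 and 215 CPM in KO-ITD and 39.2 and 29.2 CPM in KO-GFP (adjusted p = 0.0173). Osm, a cytokine gene and STAT5 target, was at 21.8, 24.9, 22.1 and 33.5 CPM in KO-ITD and 3.07 and 4.15 CPM in KO-GFP (log2 change 2.82, SE 0.36, adjusted p = 0.000713). Il2ra, the interleukin-2 receptor alpha chain, was at 1709, 2123, 629 and 1390.3 CPM in KO-ITD and 49.96 and 68.8 CPM in KO-GFP. The survival gene Bcl2 was at 314, 427, 1265 and 405 CPM in KO-ITD and 61.1 and 72.1 CPM in KO-GFP (adjusted p = 0.00806), with replicate 3 highest. Pim1, a kinase gene that STAT5 induces, did not pass (112, 151, 91.4 and 72.2 CPM in KO-ITD and 83.3 and 64.7 CPM in KO-GFP, adjusted p = 0.216), nor did Pim2 (adjusted p = 0.432).

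Bcl6, a repressor that STAT5 is known to silence and a marker of double-positive cells (chromosome 16, 23965138 to 23988698 in mm9), was at 2.42, 6.54, 4.45 and 10.7 CPM in KO-ITD and 317 and 237 CPM in KO-GFP (log2 change -5.52, SE 0.76, adjusted p = 0.00112). Every leukemia was far below both KO-GFP libraries, and replicate 4 was the highest of them. Of the factor genes themselves, Stat5b fell to 204, 273, 227 and 211 CPM in KO-ITD, against 638 and 561 CPM in KO-GFP, and Stat5a was at 151, 181, 117 and 129 CPM in KO-ITD and 199 and 170.4 CPM in KO-GFP (adjusted p = 0.205). Bcl2l1, the gene of BCL-XL, fell by 1.27 on the log2 scale and Ccnd3, cyclin D3, by 1.28. Osm and Bcl6 were kept in all fits without 1 library. The other 14 calls of the list were lost without KO-GFP replicate 1 (adjusted p of 0.0501 to 0.276), 10 of them also without KO-GFP replicate 2 (0.0546 to 0.135), and that of Lif also without KO-ITD replicate 1 or 3.

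**Figure D3:**
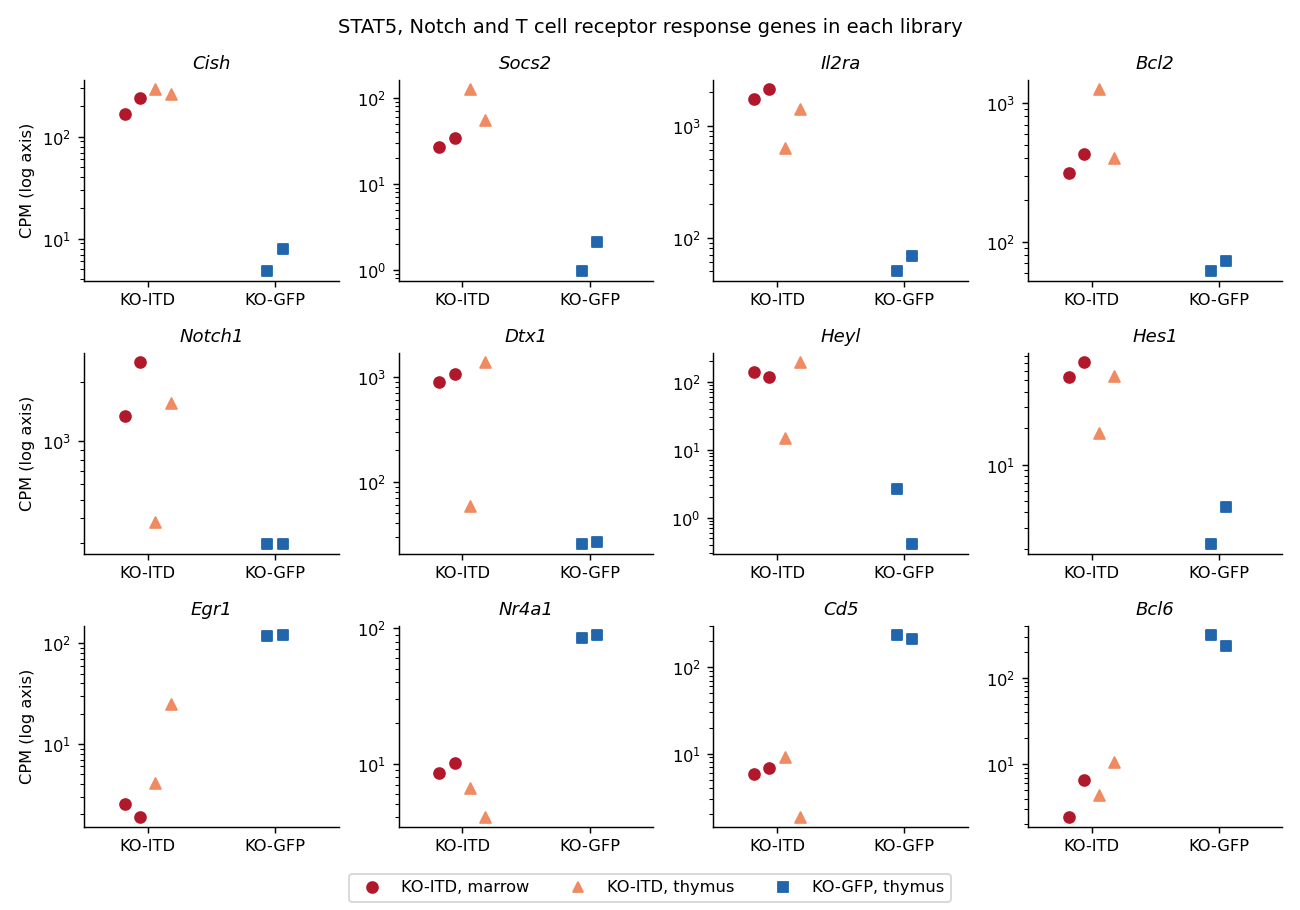
CPM on a log axis in each library for 12 genes of STAT5, Notch and T cell receptor responses, with KO-ITD left of KO-GFP in each panel; circles are marrow leukemias, triangles thymus leukemias and squares KO-GFP. The lone low triangle in the Notch1, Dtx1, Heyl and Hes1 panels is KO-ITD replicate 3, and Egr1, Nr4a1, Cd5 and Bcl6 lie lower in all 4 leukemias.

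Notch receptors are cleaved on ligand binding, and their inner domain switches on HES and HEY repressors, Deltex genes, Ptcra, Il2ra and Myc in early thymocytes. Of 32 pathway genes tested, 9 rose, 2 fell and 21 did not pass. The receptor Notch1 was at 1339, 2541, 382 and 1572 CPM in KO-ITD and 294 and 297 CPM in KO-GFP (log2 change 2.30, SE 0.68, adjusted p = 0.0332), and Notch3 at 498, 854, 85.6 and 708 CPM in KO-ITD and 90.5 and 80.8 CPM in KO-GFP (adjusted p = 0.0248). Dtx1, a Deltex ubiquitin ligase, was at 886, 1072, 58.5 and 1394 CPM in KO-ITD and 25.2 and 26.4 CPM in KO-GFP (log2 change 5.04, SE 1.13, adjusted p = 0.0114). Heyl, a HEY repressor, was at 139, 120.03, 14.8 and 197 CPM in KO-ITD and 2.62 and 0.405 CPM in KO-GFP (adjusted p = 0.00931). Replicates 1, 2 and 4 were high throughout, and replicate 3 was the lowest leukemia for these 4 genes, with Notch3 between the 2 KO-GFP values. Hes1 was at 53.7, 71.4, 18.2 and 54.7 CPM in KO-ITD and 2.17 and 4.41 CPM in KO-GFP (adjusted p = 0.00365). Ptcra, the pre-T cell receptor alpha chain, was at 757, 497, 33.8 and 383 CPM in KO-ITD and 44.5 and 57.7 CPM in KO-GFP (adjusted p = 0.0377), again with replicate 3 lowest and below both KO-GFP libraries. Nrarp, a Notch-induced inhibitor of the pathway, was at 43.8, 118, 3.25 and 109 CPM in KO-ITD and 4.41 and 6.33 CPM in KO-GFP and did not pass (adjusted p = 0.0647). Maml1, a coactivator, and Rfng, a fringe glycosyltransferase, fell by 1.05 and 0.82 on the log2 scale. None of the 11 calls was kept in every fit without 1 library: all were lost without KO-GFP replicate 1 (adjusted p of 0.0576 to 0.479), and all but Hes1 and Myc without KO-GFP replicate 2 (0.0519 to 0.157). Those of Ptcra and Rfng were also lost without KO-ITD replicate 1 (0.0671 and 0.0868), and that of Rfng without KO-ITD replicate 2 (0.0648). Without replicate 3, 10 pathway genes rose and 3 fell.

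Progenitor transcription factors such as TAL1, LMO2 and LYL1 are normally switched off as T cells mature, and they drive T cell leukemia when they stay on. Of 37 progenitor and leukemia transcription factors tested, 9 rose, 2 fell and 26 did not pass. Lmo2, a bridging factor that is an oncogene in T cell leukemia, was at 8.65, 24.1, 13.7 and 37.1 CPM in KO-ITD and 1.09 and 1.77 CPM in KO-GFP (log2 change 3.85, SE 1.04, adjusted p = 0.0235). Its partner Lyl1 was at 24.7, 28, 4.21 and 19.4 CPM in KO-ITD and 2.3 and 2.73 CPM in KO-GFP (adjusted p = 0.0128). Tal1 was at 8.78, 58.1, 1.92 and 11.7 CPM in KO-ITD and 0 and 0.101 CPM in KO-GFP, a count ratio of 514 (95% exact counting interval 142 to 4251). Tal1 and Gata1 (8.27, 22.3, 47.9 and 7.16 CPM in KO-ITD and 0.447 and 1.22 CPM in KO-GFP) are also erythroid genes. The erythroid sum was higher in KO-ITD too, but Gata1 is a member of that list. The part of erythroid cells was not tested. Klf4 was at 2.04, 1.92, 139 and 73.7 CPM in KO-ITD and 0.894 and 0.81 CPM in KO-GFP, so the thymus leukemias were high and the marrow ones low. Lmo4 fell to 7.38, 8.68, 7.58 and 21.1 CPM in KO-ITD, against 93.2 and 69.8 CPM in KO-GFP (adjusted p = 0.0104). Of 18 HOX genes tested, 2 fell and none rose: Hoxa7 (0.127, 0, 0 and 0.121 CPM in KO-ITD and 1.47 and 1.01 CPM in KO-GFP) and Hoxa6, which had no count in KO-ITD and 0.256 and 0.203 CPM in KO-GFP, at least 3.21-fold lower. All these calls were lost without KO-GFP replicate 1 (adjusted p of 0.0989 to 0.297). The call of Tal1 was also lost without KO-ITD replicate 1 or 2, that of Gata2 without 1 or 4, that of Klf4 without 3 (0.0611), and that of Hoxa6 in every such fit. Without KO-GFP replicate 2 all named here but those of Lmo4 and Hoxa7 were lost (0.0806 to 0.192).

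Of 28 G1 cyclins, cyclin-dependent kinases and their inhibitors, 2 rose, 7 fell and 19 did not pass, and the 2 are Cdkn2a and Cdkn1a. Cdkn2a, which encodes p16Ink4a and p19Arf (chromosome 4, 88920377 to 88940523), was at 46.7, 35.6, 103 and 20.6 CPM in KO-ITD and 0.256 and 0.405 CPM in KO-GFP (log2 change 7.23, SE 1.72, adjusted p = 0.0143). In the deposited transcript table, the transcript from the upstream start, that of p19Arf, held 100%, 100%, 87.4% and 53.3% of the gene's estimated counts in KO-ITD replicates 1 to 4. KO-GFP had 12 counts of the gene in all, too few to split. Cdkn1a, which encodes p21 and is a p53 target, was at 16.7, 35.8, 74.6 and 87.6 CPM in KO-ITD and 1.21 and 4.61 CPM in KO-GFP (adjusted p = 0.0259). Cdkn2b, the neighbour of Cdkn2a, was at 2.93, 1.87, 24.4 and 7.77 CPM in KO-ITD and 0.0639 and 0.405 CPM in KO-GFP and did not pass (adjusted p = 0.0793). E2f2 fell by 2.33 on the log2 scale, E2f7 by 2.63, Rb1 by 1.62 and Cdkn1b, which encodes p27, by 1.25.

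Of 29 p53 targets, 6 rose and 6 fell. Mdm4, an inhibitor of p53, was at 74.8, 97.1, 52.7 and 33 CPM in KO-ITD and 350.3 and 189 CPM in KO-GFP (log2 change -2.06, SE 0.38, adjusted p = 0.00536), and Mdm2 fell by 0.63. Phlda3, a p53-induced inhibitor of AKT, was at 20.6, 21.8, 40.5 and 26.6 CPM in KO-ITD and 1.6 and 2.18 CPM in KO-GFP (adjusted p = 0.0396). Trp53 itself was at 209.7, 204, 167 and 111 CPM in KO-ITD and 136 and 143 CPM in KO-GFP (adjusted p = 0.49). Of 20 BCL2 family genes, 3 rose and 1 fell: Bcl2, Bcl2l14 (log2 change 3.72) and the death effector Bax (109, 87.3, 135 and 62.3 CPM in KO-ITD and 36 and 40.8 CPM in KO-GFP) rose, and Bcl2l1 fell. The survival gene pair Bcl2 and Bcl2l1 thus lay on opposite sides in every library. All calls of cell cycle, p53 and BCL2 genes named here and in the preceding paragraph were lost without KO-GFP replicate 1 (adjusted p of 0.0501 to 0.301). Those of Cdkn1b, Phlda3 and Cdk2 were also lost without 1 or more of the leukemias (adjusted p of 0.0542 to 0.0618), and those of Cdkn2a, Cdkn1a, Cdkn1b, E2f2, Cdk2, Bcl2, Bcl2l1, Bcl2l14 and Phlda3 without KO-GFP replicate 2 (0.0568 to 0.165).

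Amino acid enzymes and transporters were counted next. Of 33 serine, glycine and one-carbon enzymes tested, 5 rose, 1 fell and 27 did not pass; without KO-ITD replicate 4, 16 rose and 1 fell. Gldc is described above, and Gcsh, the carrier protein of the same glycine cleavage system, was at 86.7, 70.7, 60.6 and 46.8 CPM in KO-ITD and 10.5 and 17 CPM in KO-GFP (log2 change 2.27, SE 0.46, adjusted p = 0.00797). Asns, asparagine synthetase, was at 25.3, 26.3, 17 and 10.3 CPM in KO-ITD and 0.383 and 0.912 CPM in KO-GFP (adjusted p = 0.0149). Mtap, of methionine salvage, rose by 1.63 and the mitochondrial Mthfd1l by 1.02 on the log2 scale. Among 31 nutrient transporters, 2 rose and 3 fell. Slc7a11, the cystine and glutamate exchanger (chromosome 3, 50168858 to 50247535), was at 1.78, 5.66, 14.8 and 21.4 CPM in KO-ITD and 403 and 235 CPM in KO-GFP (log2 change -4.88, SE 1.25, adjusted p = 0.0188). Slc7a5, the large neutral amino acid transporter, was at 125, 131, 122 and 102 CPM in KO-ITD and 42.9 and 55.3 CPM in KO-GFP (adjusted p = 0.0124). Slc6a9, a glycine transporter that red cell precursors also use, was at 3.18, 27, 3.01 and 8.62 CPM in KO-ITD and 0.128 and 0.304 CPM in KO-GFP, with replicate 2 highest as for the erythroid sum. All 11 calls were lost without KO-GFP replicate 1 (adjusted p of 0.147 to 0.301) and all but Gcsh and Slc43a2 without KO-GFP replicate 2 (0.0531 to 0.16). Mtap was also lost without KO-ITD replicate 1 (0.0517) and Mthfd1l without 1, 2 or 3.

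Of 45 genes of cholesterol and fatty acid synthesis, 7 rose and none fell; without KO-ITD replicate 4, 9 rose and 2 fell. Mvd, of the mevalonate pathway, was at 56.4, 53.8, 51.6 and 27.5 CPM in KO-ITD and 11.1 and 14.2 CPM in KO-GFP (log2 change 1.90, SE 0.31, adjusted p = 0.0031). Fads3, a desaturase family member, was at 12.2, 11.9, 13.5 and 12.9 CPM in KO-ITD and 0.511 and 0.861 CPM in KO-GFP (adjusted p = 0.00517), nearly equal among the leukemias. Acacb, acetyl-CoA carboxylase 2, was at 3.05, 3.41, 14.7 and 15.4 CPM in KO-ITD and 1.15 and 0.861 CPM in KO-GFP, higher in the thymus leukemias. Of 33 glycolysis and pentose phosphate genes, 9 rose and 2 fell. Tpi1 was at 292, 253, 243 and 174 CPM in KO-ITD and 84 and 121 CPM in KO-GFP (adjusted p = 0.00966), and Ldha at 1190.2, 786, 1061 and 528 CPM in KO-ITD and 405 and 479 CPM in KO-GFP (adjusted p = 0.0363). The bifunctional regulators Pfkfb2 and Pfkfb3 fell by 1.24 and 1.01 on the log2 scale. Fbp1 and Ogdhl, described above, were kept in all fits without 1 library. The other calls named here were lost without KO-GFP replicate 1 (adjusted p of 0.0828 to 0.336), and that of Ldha also without KO-ITD replicate 1 or 3 and that of Pfkfb3 without KO-ITD replicate 1. Those of Acacb, Ldha and Pfkfb3 were lost without KO-GFP replicate 2 too (0.142, 0.121 and 0.0739).

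Myc, a transcription factor of cell growth, was at 268, 283, 133 and 190.05 CPM in KO-ITD and 43.4 and 63.7 CPM in KO-GFP (log2 change 2.03, SE 0.30, adjusted p = 0.00177). Of 46 MYC targets and ribosome biogenesis genes, 14 rose and none fell, with a median log2 fold change of 0.76; with the marrow leukemias alone 30 rose, and with the thymus leukemias alone 8 rose and 1 fell. Nme1 was at 388, 238, 257 and 131 CPM in KO-ITD and 73.4 and 102 CPM in KO-GFP and Srm, spermidine synthase, at 127, 93, 51 and 52.7 CPM in KO-ITD and 21.8 and 38.2 CPM in KO-GFP, with replicate 1 highest. For cytosolic ribosomal proteins 80 of 86 rose, with a median of 1.31, and for oxidative phosphorylation subunits 52 of 84, with a median of 0.79. Rps14 was at 2039, 912, 2468 and 1683 CPM in KO-ITD and 415 and 447 CPM in KO-GFP (adjusted p = 0.00515), and Atp5l, a subunit of ATP synthase, at 276, 151, 419.8 and 233 CPM in KO-ITD and 65.9 and 75.7 CPM in KO-GFP (adjusted p = 0.00405). Ribosomal protein counts are uncertain where processed pseudogenes share their sequence.

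Ribosomal protein and respiratory subunit genes are mostly short, and short genes as a whole were higher. When tested genes were cut into 10 equal groups by exon length, the median log2 fold change ran from 1.00 for models of up to 1094 bases, where 25.8% of genes rose and 1.16% fell, to -0.44 for models of 6189 bases or more, where 4.96% rose and 23.98% fell. The Dnmt3a-intact pair, WT-ITD against WT-GFP, had the same order, from 0.46 to -0.27. Among 506 genes of up to 1000 bases and at least 20 CPM that are no ribosomal proteins, the median was 0.86 and 225 rose. With offsets that remove the length trend in each library, added after seeing the data, 1006 genes were higher (6.49%) and 908 lower (5.86%), and 1563 of the 3047 calls were kept. Under that correction 17 of 86 ribosomal proteins rose with a median of 0.40. For oxidative phosphorylation, 9 of 84 rose and 4 fell with a median of 0.03, and for the MYC list 11 of 46 rose and 1 fell with a median of 0.73. For the proteasome and unfolded protein response, 2 of 33 rose and 1 fell with a median of 0.26, against 0.74 without the correction. Of the glycolysis list 5 rose and none fell, of the progenitor transcription factors 5 rose and 2 fell, and of the erythroid markers 3 rose. Calls named elsewhere that did not pass under the correction were, lower in KO-ITD, those of Cd8a (adjusted p = 0.052), Cbl (0.0527), Lag3 (0.0655), Bcl11b (0.136), Ikzf2 (0.0787), Ikzf1 (0.416), Dclre1c (0.131), Maml1 (0.109), Slc7a11 (0.0535), Pfkfb2 (0.299), Pfkfb3 (0.227), Stat2 (0.0537) and Insr (0.0688). Higher in KO-ITD, they were those of Ptcra (adjusted p = 0.0739), Id2 (0.0556), Tal1 (0.0509), Klf4 (0.0519), Bax (0.0594), Phlda3 (0.0665), Ldha (0.0706), Srm (0.0734), H2-D1 (0.0934) and Epcam (0.0655). The part of RNA quality or library preparation in this trend was not tested. All the single calls of growth genes named here were lost without KO-GFP replicate 1 (adjusted p of 0.0576 to 0.3), those of Nme1 and Srm also without KO-GFP replicate 2 (0.0652 and 0.0611) and that of Srm without KO-ITD replicate 1 (0.0541).

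**Figure D4:**
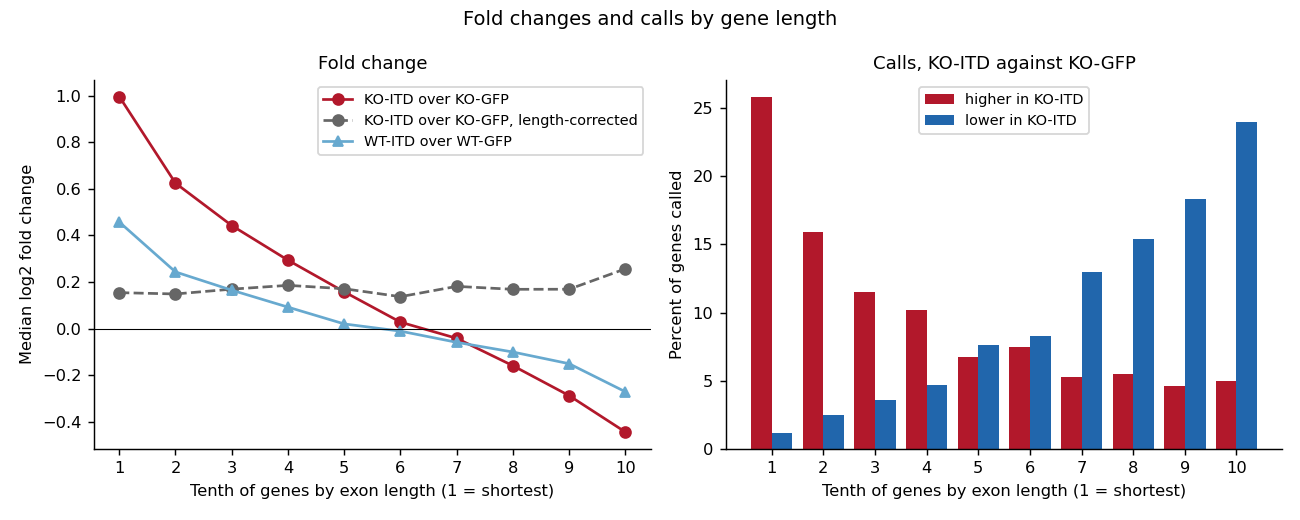
Left, median log2 fold change in 10 equal groups of genes from the shortest (1) to the longest (10) exon length, for KO-ITD over KO-GFP, the same with length-corrected offsets, and WT-ITD over WT-GFP. Right, percent of the genes of each group that were called higher or lower in KO-ITD, from 25.8% higher in the shortest group to 23.98% lower in the longest.

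Many chromatin regulators have long transcripts. Of 45 genes of histone methylation and Polycomb, 16 fell and 1 rose, or 5 and 0 after the length correction. Without KO-ITD replicate 3, 10 fell, with the thymus leukemias alone 25 fell, and with the marrow leukemias alone 8 fell and 2 rose. Kdm5b, an H3K4 demethylase, was at 5.22, 13.9, 55.4 and 51.8 CPM in KO-ITD and 229.9 and 191 CPM in KO-GFP (log2 change -2.74, SE 0.69, adjusted p = 0.0174), with the marrow leukemias lowest. Jarid2, a Polycomb cofactor, was at 37.9, 68.3, 58.2 and 71.7 CPM in KO-ITD and 183 and 162 CPM in KO-GFP (adjusted p = 0.00463), and Kdm6b, an H3K27 demethylase, fell by 1.71 on the log2 scale. Corrected for length, Jarid2 (adjusted p = 0.0192) and Kdm6b (0.0463) passed and Kdm5b (0.0667) did not. Of 25 genes of DNA methylation and demethylation, 3 rose and 5 fell, or 1 and 1 after the correction. Dnmt3b, the other de novo methyltransferase, was at 91.5, 118, 67 and 52.1 CPM in KO-ITD and 7.99 and 12.4 CPM in KO-GFP, and passed with the correction too (log2 change 3.32, adjusted p = 0.00148). Dnmt3a fell by 1.16 (adjusted p = 0.0149) without it and had a corrected log2 fold change of -0.35 (adjusted p = 0.201). Dnmt1 did not pass (416, 611, 361 and 148 CPM in KO-ITD and 494 and 512 CPM in KO-GFP). Of 60 histone genes 4 fell and none rose, although without KO-ITD replicate 4, 5 rose and 4 fell. Among those that fell were Hist3h2ba (0.891, 1.76, 4.33 and 1.46 CPM in KO-ITD and 21 and 24.8 CPM in KO-GFP) and Hist2h2be, both kept in all fits without 1 library. The other calls named here were lost without KO-GFP replicate 1 (adjusted p of 0.0683 to 0.289), and that of Kdm5b also without KO-GFP replicate 2 (0.0619).

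Of 50 interferon response genes, 7 fell and 2 rose, or 3 and 2 with the length correction. Irf9, part of the factor that answers type I interferon, was at 31.4, 34.4, 19.4 and 32.9 CPM in KO-ITD and 99.8 and 64.6 CPM in KO-GFP (adjusted p = 0.00511). Its partner Stat2 was at 47.2, 62.3, 41.4 and 48.2 CPM in KO-ITD and 141 and 106 CPM in KO-GFP (adjusted p = 0.0165). Replicate 3 was the lowest leukemia for both. Ifit2 fell by 1.62 on the log2 scale and Gbp3 rose by 1.82. Of 38 genes of MHC and antigen presentation, 6 rose and 2 fell, or 2 and 3 with the length correction. B2m, the light chain of MHC class I, was at 1519, 1063, 1823 and 1639 CPM in KO-ITD and 373 and 486 CPM in KO-GFP (log2 change 1.81, SE 0.33, adjusted p = 0.00478), and the heavy chain gene H2-D1 at 652, 538, 1252 and 927 CPM in KO-ITD and 274 and 342 CPM in KO-GFP. The immunoproteasome subunits Psmb8, Psmb9 and Psmb10 rose by 1.04, 1.42 and 1.34. With the length correction, B2m passed (adjusted p = 0.0424) and the 3 subunits did not (0.145, 0.183 and 0.081). H2-Q7 rose by 3.11, but H2-Q genes share sequence, so its counts are uncertain. All calls here were lost without KO-GFP replicate 1 (adjusted p of 0.0536 to 0.289), those of Gbp3, Psmb8 and Psmb9 also without KO-ITD replicate 1, and that of H2-D1 without KO-ITD replicate 3 or 4. Without KO-GFP replicate 2 all named here but Irf9, Ifit2 and B2m were lost (0.0509 to 0.13).

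Chemokine and semaphorin receptors place thymocytes within the thymus. Ccr9, the receptor for the thymic and gut chemokine CCL25 (chromosome 9, 123676329 to 123692575), was at 10.7, 10.9, 128 and 11.3 CPM in KO-ITD and 1339 and 1157 CPM in KO-GFP (log2 change -4.96, SE 0.98, adjusted p = 0.00719). Replicate 3 was the highest leukemia and still far below KO-GFP. Plxnd1, a semaphorin receptor that guides thymocytes, was at 52.3, 190.3, 41.1 and 153 CPM in KO-ITD and 1022 and 694 CPM in KO-GFP (adjusted p = 0.00367). Of 38 integrin and adhesion genes tested, 5 rose and 2 fell. The tetraspanin Cd82 was at 933, 644, 282 and 595 CPM in KO-ITD and 51.6 and 77.4 CPM in KO-GFP (log2 change 3.25, SE 0.61, adjusted p = 0.00565), and Itga9, an integrin chain, at 131, 217, 11.5 and 117 CPM in KO-ITD and 6.71 and 2.08 CPM in KO-GFP (adjusted p = 0.00755). E-cadherin, Cdh1, was at 63.4, 35.8, 181 and 65.8 CPM in KO-ITD and 2.17 and 7.39 CPM in KO-GFP, and Epcam at 84.1, 72.7, 291 and 77.7 CPM in KO-ITD and 6.2 and 6.74 CPM in KO-GFP, both with replicate 3 highest. Epcam is also a member of the thymic epithelial list above. Itgal, the LFA-1 alpha chain, and its ligand gene Icam2 fell by 1.65 and 2.24 on the log2 scale. Gzma, a granule protease of cytotoxic cells, was at 1464, 509, 3037 and 315 CPM in KO-ITD and 62.4 and 54.2 CPM in KO-GFP (adjusted p = 0.00873), while the NK receptor gene Klrk1 fell to 0, 0, 0.241 and 0.121 CPM in KO-ITD, against 2.62 and 9.37 CPM in KO-GFP.

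Of 52 cytokine and growth factor receptors, 7 rose (13.5%) and 5 fell (9.6%), beside 9.8% and 9.85% of all tested genes. With the marrow leukemias alone 4 rose and 9 fell, and with the thymus leukemias alone 9 rose and 4 fell. Pdgfrb, a platelet-derived growth factor receptor of mesenchymal cells, was at 28.3, 18.7, 340.01 and 95.6 CPM in KO-ITD and 4.98 and 4.71 CPM in KO-GFP (adjusted p = 0.0169). Pdgfrb, highest in replicate 3, is 1 of the 11 stromal markers summed above. Il21r and the insulin receptor Insr fell by 1.90 and 1.79 on the log2 scale. Il7r was at 228, 56.8, 95.6 and 64.1 CPM in KO-ITD and 56.7 and 82 CPM in KO-GFP and did not pass (adjusted p = 0.708). Il4ra was at 14.6, 10.1, 77.9 and 275 CPM in KO-ITD and 329.7 and 281 CPM in KO-GFP (adjusted p = 0.16), with the marrow leukemias low. The surface receptor calls named in this and the preceding paragraph were all lost without KO-GFP replicate 1 (adjusted p of 0.0661 to 0.288), that of Epcam also without KO-ITD replicate 1 or 3 (0.0593 and 0.0745) and that of Klrk1 without KO-ITD replicate 1. Those of Epcam, Gzma, Icam2, Itga9, Klrk1, Il21r and Pdgfrb were lost without KO-GFP replicate 2 too (0.0618 to 0.193).

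Of 51 Wnt pathway genes tested, 4 rose and 4 fell. Wnt5b was at 73.7, 40.2, 21.6 and 23.9 CPM in KO-ITD and 8.94 and 5.62 CPM in KO-GFP and the receptor Fzd5 at 43.5, 30.8, 20.6 and 24.2 CPM in KO-ITD and 8.69 and 7.24 CPM in KO-GFP, both highest in replicate 1. Wnt8b was at 0, 0, 1.2 and 0 CPM in KO-ITD and 14.4 and 16.9 CPM in KO-GFP (adjusted p = 0.0167), so it was listed at 0 in 3 leukemias. Of 68 voltage-gated channel genes tested, 5 rose and 5 fell. Kcnj8, a pore subunit of ATP-sensitive potassium channels, was at 42.9, 27.5, 19.2 and 23.1 CPM in KO-ITD and 0.256 and 0.81 CPM in KO-GFP (log2 change 5.68, SE 1.14, adjusted p = 0.00773). Kcna3, the main voltage-gated potassium channel of T cells, was at 20.4, 22.7, 8.42 and 5.34 CPM in KO-ITD and 103 and 61.8 CPM in KO-GFP (adjusted p = 0.00604). Cacnb1, a calcium channel beta subunit, was at 2.04, 3.08, 4.81 and 3.52 CPM in KO-ITD and 34.6 and 16.3 CPM in KO-GFP (adjusted p = 0.000899). Of 36 collagens tested, 9 rose and none fell, beside the stromal sums given above. Col1a2 and Col3a1 are members of both lists. Of 40 imprinted genes tested, 3 rose and none fell, or 2 and 1 without KO-ITD replicate 4; the growth factor gene Igf2 was at 6.87, 42.3, 60.3 and 89 CPM in KO-ITD and 0.192 and 0.253 CPM in KO-GFP and did not pass (adjusted p = 0.105), nor did H19 (13.2, 363, 119.8 and 88.1 CPM in KO-ITD and 3 and 2.89 CPM in KO-GFP). Sfrp2, Cacna1e and Cacnb1 were kept in all fits without 1 library, and the other calls named here were lost without KO-GFP replicate 1 (adjusted p of 0.115 to 0.303). That of Wnt5b was also lost without KO-ITD replicate 1 (0.0517), and those of Wnt5b, Fzd5 and Wnt8b without KO-GFP replicate 2 (0.169, 0.107 and 0.0656).

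The 4 leukemias differed among themselves. With the marrow leukemias alone 2944 genes were called, and with the thymus leukemias alone 4151, against the same KO-GFP libraries. Tissue and submission coincide among the KO-ITD libraries, since replicates 3 and 4 are from thymus and from later records, so they cannot be told apart. Some genes marked 1 leukemia. Replicate 1 had the skeletal troponin gene Tnnt1 at 204 CPM, against 8.85, 16.1 and 7.52 CPM in the other leukemias, and replicate 2 had Strc, an inner ear protein gene, at 108 CPM, against 1.27, 0 and 0.607 CPM. Replicate 3 had the scavenger receptor gene Cd163l1, known from gamma delta T cells, at 954 CPM, against 7, 0.66 and 9.1 CPM, and replicate 4 had the trypsin gene Try5 at 239 CPM, while it had no counts in the others. Trypsin genes are near copies of each other, so the count of Try5 is uncertain. Replicate 4 also had the macrophage receptor Marco at 364 CPM, a member of the macrophage list that summed to 5370 CPM there.

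Transcript starts were compared within genes that have several, as shares of the gene's deposited transcript counts. The rule was chosen after values were seen, so it is a description with no test. Of 806 genes with at least 100 counts in each of the 6 libraries, 4 had a start whose share was at least 30 percentage points higher in every KO-ITD library than in both KO-GFP libraries, with starts at least 1000 bases apart: Runx1, Syne3, Tbc1d14 and Tulp4. RUNX1 is a master factor of blood formation whose gene has a distal promoter much used in T cells and a proximal one. The gene as a whole was at 200.2, 363, 202 and 202 CPM in KO-ITD and 210.4 and 189.8 CPM in KO-GFP (log2 change 0.27, adjusted p = 0.497). The proximal start (mm9 chromosome 16, position 92697573, minus strand) held 70.5%, 70.8%, 56.8% and 68.0% of it in KO-ITD and 15.7% and 15.5% in KO-GFP. It held 64.7%, 65.4% and 79.8% in WT-ITD and 8.07% and 12.5% in WT-GFP. The 7 leukemias thus lay between 56.8% and 79.8% and the 4 thymocyte libraries at 15.7% or less, with Dnmt3a intact or deleted. At Tulp4, the upstream start held 45.7%, 41.3%, 67.8% and 48.1% in KO-ITD and 1.52% and 2.03% in KO-GFP, and 10.7%, 0% and 5.37% in WT-ITD. Start shares rest on the authors' assignment of reads to transcripts, and no library measured starts directly.

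The windows of both Runx1 starts are shown with each CG in capitals (GRCm38.p6, RefSeq, 5′ to 3′ on the minus strand), since the 2 starts differ in CG content.
Runx1 proximal, chr16:92697280-92697579: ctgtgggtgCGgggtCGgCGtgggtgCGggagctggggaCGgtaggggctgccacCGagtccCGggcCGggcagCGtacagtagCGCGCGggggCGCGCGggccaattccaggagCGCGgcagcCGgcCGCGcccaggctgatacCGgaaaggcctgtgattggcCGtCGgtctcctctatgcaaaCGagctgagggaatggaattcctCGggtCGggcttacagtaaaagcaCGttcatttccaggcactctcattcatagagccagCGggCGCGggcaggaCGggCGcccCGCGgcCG
Runx1 distal, chr16:92826025-92826324: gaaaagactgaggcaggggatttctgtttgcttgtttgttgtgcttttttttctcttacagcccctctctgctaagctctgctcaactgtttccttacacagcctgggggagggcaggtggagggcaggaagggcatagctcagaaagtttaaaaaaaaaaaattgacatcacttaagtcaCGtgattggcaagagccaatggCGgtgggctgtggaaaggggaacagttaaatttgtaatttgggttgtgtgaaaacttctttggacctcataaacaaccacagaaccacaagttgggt
The proximal window holds 35 CG and the distal one 2, against a median of 7 over the 32851 windows. At least 35 CG were in 6.95% of windows and fewer than 2 in 14.1%. The starts lie 128745 bases apart in GRCm38.p6 and 128738 in the deposited mm9 models.

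**Figure D5:**
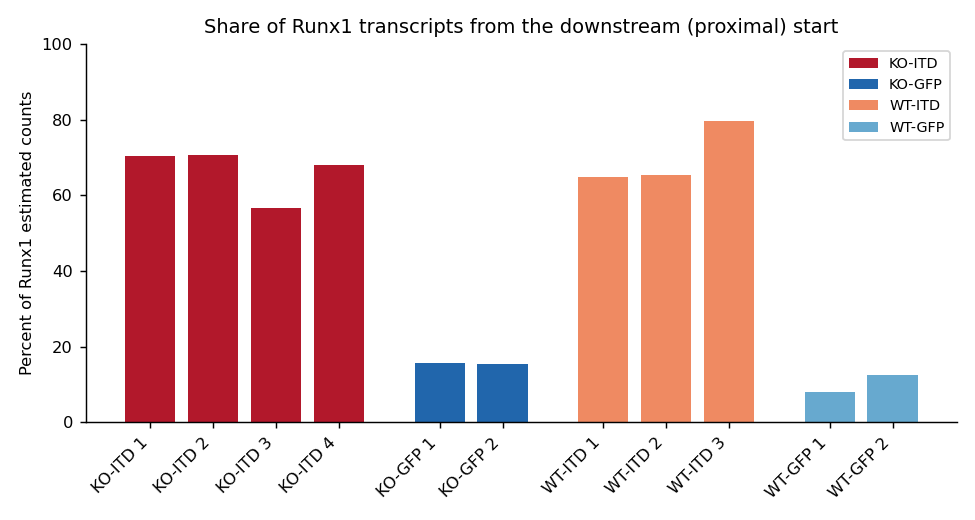
Share of the Runx1 transcript counts from the proximal start in each library (percent, bars from 0), for KO-ITD, KO-GFP, WT-ITD and WT-GFP. All 7 leukemia bars are at 56.8% or more and all 4 thymocyte bars at 15.7% or less.

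Whether the difference between leukemia and thymocytes depended on Dnmt3a was tested as an interaction, KO-ITD over KO-GFP against WT-ITD over WT-GFP. No gene of 15508 passed with edgeR (0%), and 838 had an unadjusted p under 0.05 (5.4%). DESeq2 called 80 of 13410 genes with an adjusted p (0.597%), 38 positive and 42 negative. Without WT-ITD replicate 3, edgeR called 39. Adam12, a metalloprotease gene, is an example: 1.65, 0.66, 3.13 and 6.67 CPM in the KO-ITD leukemias and 158 and 151 CPM in KO-GFP, and 286, 323 and 1.41 CPM in WT-ITD and 10.3 and 27.2 CPM in WT-GFP (DESeq2 adjusted p = 0.000257, edgeR adjusted p = 0.344). WT-ITD replicate 3 was as low as the KO-ITD libraries. Pdgfrb rose in KO-ITD and was at 0.689, 0.184 and 0.859 CPM in WT-ITD and 6.68 and 8.06 CPM in WT-GFP (DESeq2 adjusted p = 4.75e-06, edgeR adjusted p = 0.299). Of the 20 genes with the widest upward gap all 20 had a positive log2 fold change in the Dnmt3a-intact pair, and 9 passed there, where 1.35% of all tested genes were called higher. Of the 20 downward genes 19 had a negative one, the exception being Adam12, and 12 passed, where 0.89% of all tested genes were called lower. A shared sign does not mean a shared size. Cacna1e had a log2 fold change of -9.28 with Dnmt3a deleted and -1.21 with it intact (interaction adjusted p = 8.69e-05 by DESeq2, 0.299 by edgeR). Among the genes with the widest gaps, Adam12, Cdh24, Slco3a1 and the upward Fbp1 also passed the DESeq2 interaction, and the others did not.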

How the data were processed

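RNA of sorted cells was sequenced in 17 libraries of 7 groups. The authors deposited estimated counts per gene and per transcript, made with TopHat2 2.0.10, Cufflinks 2.1.1 and Cuffdiff 2.1.1 or 2.2.1 on mm9, per the submitters' processing notes. Deposited counts were rounded to whole numbers; no source used here gives strand use, so antisense partners cannot be told apart. FPKM values were not used.

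All 17 libraries entered 1 fit by edgeR 4.0.16 (R 4.3.3): filterByExpr kept 15508 genes, TMM factors were 0.943 to 1.076, and the quasi-likelihood test was adjusted by Benjamini-Hochberg at 0.05. CPM uses TMM-scaled library sizes. Each SE is worked back from the quasi-likelihood test, as the absolute log2 change divided by the square root of its F statistic. It is not a separate estimate of error. Data were also simulated for KO-ITD against KO-GFP over 15508 genes. There edgeR recovered 95% of the genes changed by 3 and 99% of those changed by 4 on the log2 scale. The median absolute error of these log2 changes was 0.32 and 0.37. In the measured data, the SE of the genes with the widest gaps ran from 0.44 (Cdh24) to 3.21 (Sparc). Whether the recovery holds for genes with the wider spread was not tested. limma 3.58.1 and DESeq2 1.42.0 were alternatives. Genes were named by rule: the 20 widest gaps in each direction, up to 6 called members a list by size of change, 5 genes for each leukemia and the DESeq2 interaction; other list members were named after their values were seen. Members and lists were chosen with earlier results of these data known. Intervals and floors cover counting error only.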

Additional observations from a re-analysis of the deposited data

Results flagged for a closer look

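Among 225 named genes, 26 had 1 KO-ITD library apart from the other 3. The gap was taken on log2 CPM, where Dixon's ratio puts it past its 95% critical value. Chance flags about 1 in 20 groups of values that were not selected. Gcm2, Kcnh4, Megf11, Myrfl, Pth, Sycp1, Tgtp1, Tktl1, Try5, Xist and Xlr3b were named because 1 leukemia stood apart from the others (Xist also by its own place in the rule), so their place here follows from that choice and the number of genes cannot be read against chance. No explanation was tested for any of them. Values below are printed as CPM, although the ratio was taken on the log2 scale, so a gap in CPM need not match it.

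Replicate 3 was high for Ccr9 (128 CPM, against 10.7, 10.9 and 11.3 CPM in the others) and for Epcam (291 CPM, against 84.1, 72.7 and 77.7 CPM), and held the 1.20 CPM of Wnt8b, which was at 0 in the others. It was low for Dtx1 (58.5 CPM, against 886, 1072 and 1394 CPM), for Id1 (2.77 CPM, against 21.1, 24.8 and 23.2 CPM) and for Irf9 (19.4 CPM, against 31.4, 34.4 and 32.9 CPM). Megf11 was at 63.9 CPM in replicate 3, the parathyroid factor Gcm2 at 23.1 CPM, the transketolase relative Tktl1 at 17.2 CPM and the interferon-induced GTPase Tgtp1 at 10.5 CPM.

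Replicate 4 was high for Col4a1, a basement membrane collagen (71.1 CPM, against 3.69, 4.29 and 5.77 CPM in the others), for the platelet chemokine Pf4 (98.7 CPM, against 2.8, 2.42 and 3.25 CPM) and for Egfr (44.2 CPM, against 1.27, 1.04 and 1.56 CPM), beside its high stromal and macrophage marker sums. It held 239 CPM of Try5 and 11.8 CPM of the parathyroid hormone gene Pth, both at 0 in the others. It was low for Cdk2 (17.5 CPM, against 96.6, 90.1 and 81.8 CPM), for Mvd (27.5 CPM, against 56.4, 53.8 and 51.6 CPM) and for the amino acid transporter Slc38a2 (196 CPM, against 399, 430.3 and 388 CPM).

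Replicate 2 was the library with Xist (2276 CPM) and without Ddx3y (0 CPM, against 129, 140.1 and 179.9 CPM in the others), and held 409 CPM of the methyltransferase gene Mll3, against 120.3, 122 and 107 CPM. Sycp1 of the synaptonemal complex (5.61 CPM, 0 in the others) and the X-linked Xlr3b (30.8 CPM, against 0.382, 0.241 and 0.243 CPM) were also high there. In replicate 1, Kcnh4 was at 5.73 CPM, Myrfl was at 7.89 CPM and Ccrl2 was low at 2.8 CPM, against 6.27, 6.25 and 7.16 CPM.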

How the results depend on the processing

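The number of genes called between KO-ITD and KO-GFP was 3047. It was 5015 with DESeq2 (2996 higher and 2019 lower, so the share higher moved to 59.7%, against 49.9%), 439 when only the compared groups were fitted (203 higher and 236 lower) and 1914 with length-corrected offsets, which were added after seeing the data. Without 1 library it ran from 147 (KO-GFP replicate 1 left out) to 3949 (KO-ITD replicate 2 left out). It was within 1.5 times of 3047 with RLE size factors (3180), limma voom (3160), no filter on low counts (2577), the marrow leukemias alone (2944) and the thymus leukemias alone (4151). For the interaction, DESeq2 called 80 genes and edgeR none, and leaving out 1 library gave 0 to 39. No called named gene changed direction under any alternative run. Of the named genes that were not called, Dlx1, Kcnh4, Megf11, Myrfl, Pth, Strc, Tktl1, Try5 and Xlr3b changed sign in at least 1 of them. Of 225 named genes, 175 lost their call without KO-GFP replicate 1, 124 without KO-GFP replicate 2, 131 in the fit to the compared groups only and 60 with the length correction. The 225 include genes that had no call to lose, such as Dlx1 and Cd163l1 (edgeR adjusted p = 0.927 and 0.126), so the share of calls lost is larger. The cause of these losses was not tested, beyond the fewer samples in such fits.

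For replicate numbers shared by the groups, deviations from the group means correlated by -0.037 for the libraries numbered 1 and -0.163 for those numbered 2. The deviations of the 2 KO-GFP libraries mirror each other, so these values cannot decide whether libraries were paired. A fit with the replicate block called 2439 genes (1204 higher and 1235 lower) and none in the interaction. KO-GFP has 2 libraries, so each mean of that group rests on 2 values, while the spread behind the p-values was estimated over all 17 libraries. Depth limits genes near 0 CPM in either group.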
